A study of Homo sapiens with 36 samples.

Results

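Matrix glycoproteins, proteoglycans and the enzymes that modify and cross-link collagen were followed as a set of 40 genes among the 57665 genes of the deposited tables. The rule names the members by gene symbol and uses no measured value, although the set was drawn up with earlier results of these data known. It holds 8 adhesive and matricellular glycoproteins, 6 elastic fibre and fibulin genes, 10 basement membrane genes, 7 proteoglycans, and 9 genes for oxidases, collagen hydroxylases and a collagen chaperone. RNA sequencing was done on U2OS, a human osteosarcoma line that stably carried Dmr-PERK. This construct joins the part of mouse PERK that phosphorylates eIF2α to DmrB, a domain that pairs when the ligand AP20187, the dimerizer, is added. The comparisons ask which transcripts change once the kinase is switched on, and which of those changes differ in cells without the transcription factor ATF4. Each of the 12 groups had 3 libraries: wild-type (WT) and ATF4 knockout cells, both carrying Dmr-PERK, untreated (0 h) or after 2, 4, 8, 16 or 24 h with dimerizer. All treated wells had the same dose, which the labels give with no unit. The labels do not say whether the knockout is a single clone. Nor do they say that the wells of a group came from different cultures, so the spread behind each p value is that of wells and may be technical. Untreated wells at later times and cells lacking Dmr-PERK were not analysed here, so time in culture and the ligand cannot be told apart from the kinase.

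The extracellular matrix is a secreted network. Fibronectin, thrombospondins and tenascin link cells to it, laminins, nidogens, perlecan and agrin build the basement membrane, and fibrillins and fibulins organise elastic fibres. Matrix proteins are made on the endoplasmic reticulum, where prolyl and lysyl hydroxylases and the chaperone HSP47 prepare collagen, and lysyl oxidases cross-link the fibres outside the cell. PERK is a kinase of that same compartment: by phosphorylating eIF2α it slows most protein synthesis while raising translation of ATF4 mRNA.

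Total counts per library ran from 8608783 to 16265056, with 26194 to 30798 genes detected and 4.3 to 5.86% mitochondrial counts. ATF4 mRNA was still counted in the knockout, at 266 ± 7.47 CPM untreated and 731 ± 25.1 at 24 h, against 318 ± 7.29 and 703 ± 12 in WT. Counts per gene do not show whether the allele is disrupted, so they do not check the genotype label. Here CPM are counts scaled to the size of each library, given as mean ± SD with n = 3. A list of 10 mesenchymal and osteoblast markers, 9 of them tested and TWIST1 too low to test, summed to between 4457 and 4708 CPM in untreated libraries. Markers of other lineages were low, with sums of 8.64 to 30.4 CPM for 6 epithelial genes, 0.235 to 6.57 for 4 endothelial genes and 0.0675 to 1.22 for 4 blood genes. The mesenchymal sum ran from 2044 to 4275 CPM after dimerizer, and in WT at 24 h VIM was at -0.87 ± 0.02 and S100A4 at -3.23 ± 0.17 in log2. The part of that shift in the results below was not tested. In bulk RNA, fewer cells of a type and less RNA per cell cannot be told apart.

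In untreated WT cells the members differed widely in abundance. On the TPM scale, which corrects for length, SPARC, a collagen-binding glycoprotein that is abundant in bone, stood first at 1810.2 ± 3.87 (SD, n = 3). THBS1 (392 ± 19.4) and FN1 (360.5 ± 4.29) came next, closer to each other than 2 SD of THBS1. AGRN (313 ± 7.47), SERPINH1 (266 ± 3.8) and SDC4 (247 ± 12.3) followed. The lowest tested members were VCAN (0.43 ± 0.0839), LAMA4 (0.493 ± 0.203) and THBS2 (0.631 ± 0.133), whose order is within their spread. POSTN sat at the smallest value of the table, 0.102, and FBLN2 at 0.232 ± 0.156. These 2 genes did not pass the filter on low counts, and the other 38 were tested.

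Most of the members fell in WT cells, slightly at first and steeply after 8 h. A gene is said to rise or fall where its adjusted p was under 0.05 in edgeR's quasi-likelihood test over all 19043 tested genes. Of the 38 tested members, 18 fell and 1 rose at 2 h, where 10.4% of all tested genes were lower and 12.2% higher. By 4 h 22 had fallen and 4 risen (all genes: 21.1% lower, 23.6% higher), and by 8 h 23 and 6 (29.6% and 29.7%). At 16 h 29 were lower and 4 higher (32.8% and 33.7%), and at 24 h 31 were lower and 3 higher (32.4% and 33%). The median change of the members was -0.15, -0.18, -0.31, -0.85 and -0.96 in log2 over these times, against -0.02 for all tested genes at 24 h. Among the 10522 tested genes whose mean was 10 CPM or more, 34.4% were lower at 24 h in WT, as were 29 of 33 members, or 87.9%.

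The same direction prevailed in the ATF4 knockout. There 17 members fell and 1 rose at 2 h (all genes: 8.5% lower, 9.85% higher), 19 fell and 4 rose at 4 h (20.3% and 22.1%), and 24 fell and 7 rose at 8 h (31.1% and 30.7%). At 16 h 31 were lower and 4 higher (32.7% and 33%), and at 24 h 33 were lower and 3 higher (33% and 32.4%). Called lower in both genotypes were 15 members at 2 h, where 5.13% of all genes were, 17 at 4 h (14.6%), 21 at 8 h (23.1%), 28 at 16 h (25.4%) and 30 at 24 h (25.2%). At least 1 of the 3 fits of the TPM did not make 16 of the 19 WT calls and 15 of the 18 knockout calls of 2 h, and 3 of 34 and 9 of 36 of those of 24 h. A called fall of at least 2-fold at 24 h was seen for 17 members in WT and for 8 in the knockout, where 13.7% and 13.3% of all genes had one. A further 2 in WT and 6 in the knockout had fallen by 1.9 to 2-fold. Summed over all 40 genes, the level went from 10681 ± 76.2 to 5598 ± 12.5 CPM in WT and from 10665 ± 135 to 5582 ± 133 in the knockout. The make-up of that sum shifted in WT between 0 and 24 h. THBS1 went from 15.6 ± 0.146% to 2.8 ± 0.118% and SPARC from 11.6 ± 0.0661% to 7.29 ± 0.0909%. TNC went from 1.25 ± 0.0754% to 13 ± 0.14%. FN1 kept a like share, at 11.4 ± 0.805% untreated and 10.9 ± 0.0938% at 24 h.

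**Figure D1:**
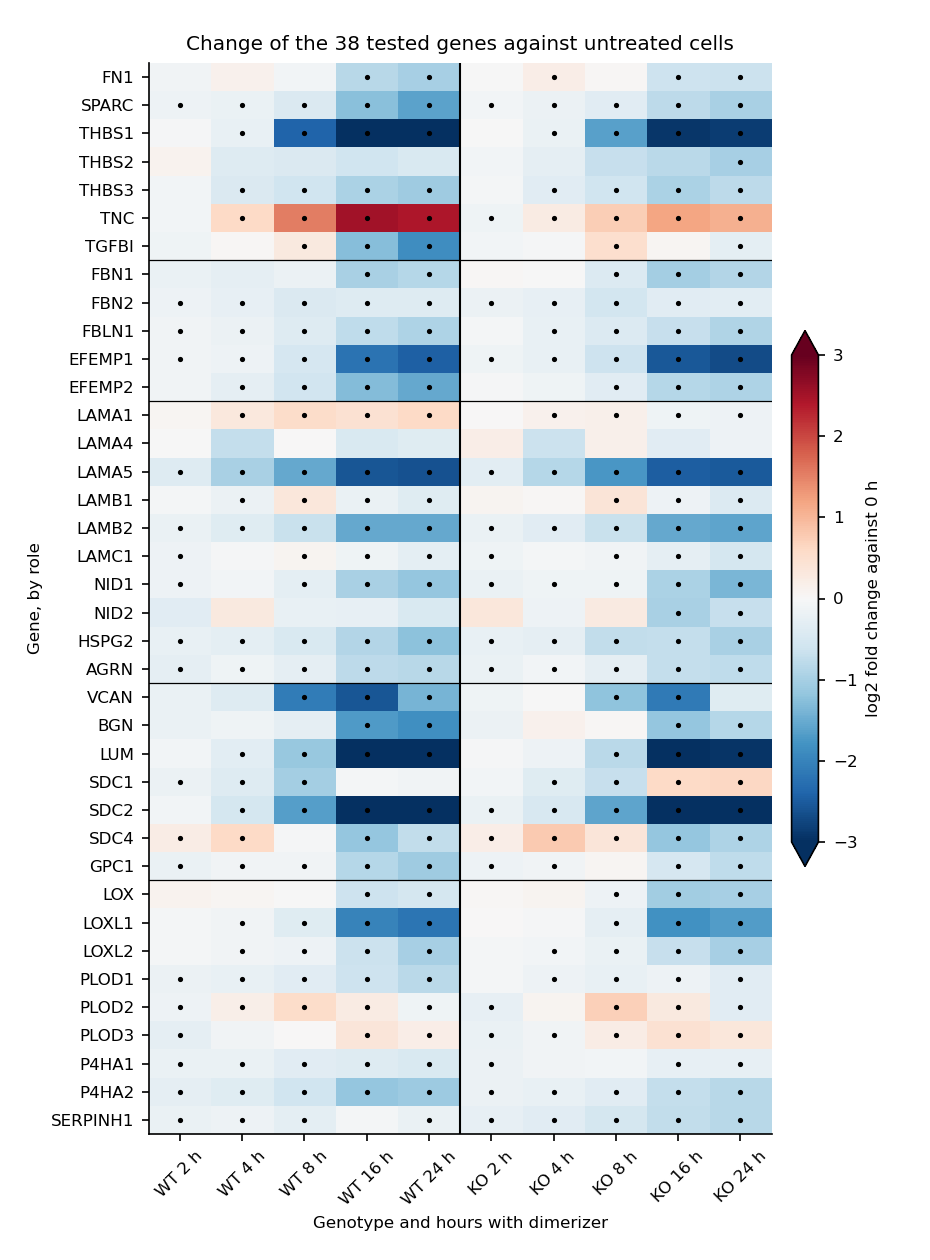
Log2 fold change against untreated cells for the 38 tested genes (rows, grouped by role) at each time in WT and in ATF4 knockout (KO) cells (columns). Dots mark an adjusted p under 0.05 and colours saturate beyond -3 and 3. Blue fills most rows from 16 h in both genotypes, TNC is red throughout from 4 h, and LAMA1 is red in WT and pale in the knockout.

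**Figure D2:**
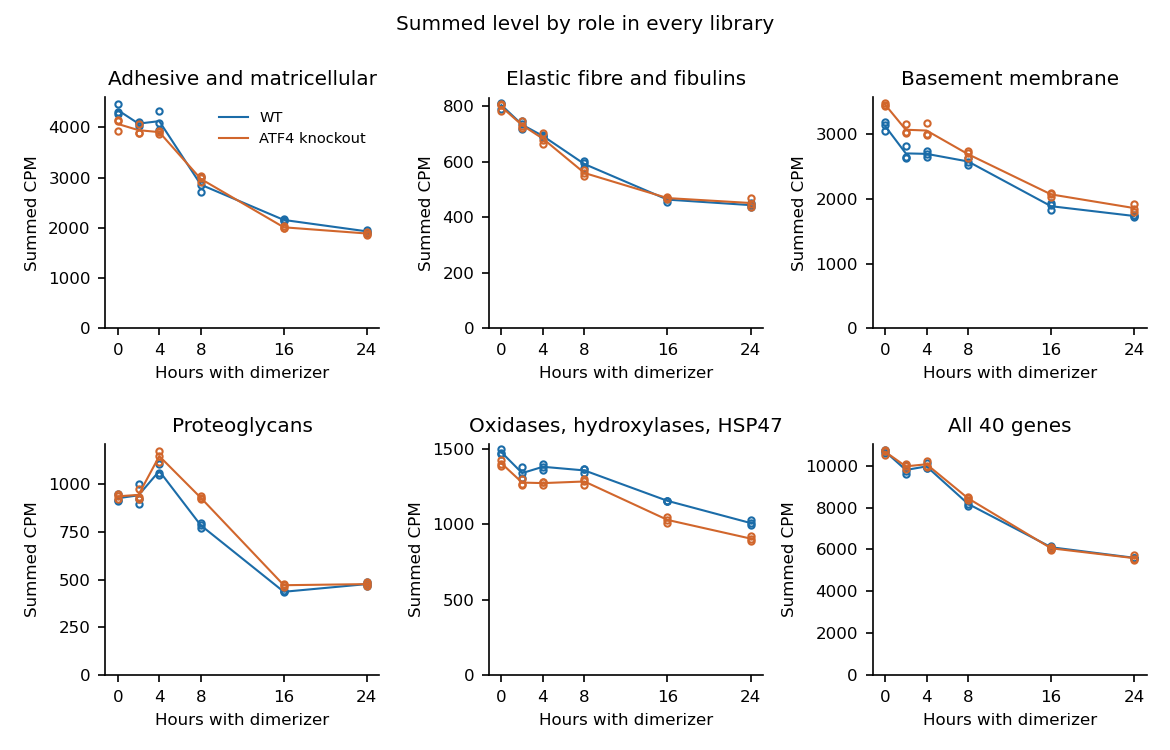
Summed CPM by role and over all 40 genes against hours with dimerizer. Circles are the 3 libraries of each group and lines join their means. Every sum was lower at 24 h than at 0 h in both genotypes, and the proteoglycan sum peaked at 4 h before it fell.

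Among the adhesive and matricellular glycoproteins, 5 of 7 tested genes were lower and 1 was higher in WT at 24 h. THBS1 encodes thrombospondin-1, a matricellular protein that binds cells and latent TGF-beta. Its gene lies at chr15:39581079-39599466 on the plus strand of GRCh38. THBS1 read 1666, 1668 and 1680.3 CPM in untreated WT libraries, 1348, 1436 and 1525 after 4 h, 281, 321 and 345 after 8 h and 150.3, 156 and 164 after 24 h. The step between 4 and 8 h held most of the loss and no libraries of these times overlapped. The 24 h level was 10.6-fold below the start, a log2 change of -3.41 ± 0.05 (adjusted p = 7.5e-40). In the knockout THBS1 went from 1346, 1277 and 1393 to 191, 192 and 177 CPM, a change of -2.84 ± 0.05. The knockout started lower and ended higher than WT, without overlap at either time, and its change was 0.57 ± 0.07 above that of WT (adjusted p = 5.5e-09). In limma on log2(TPM + 1) over all columns that difference was 1.32 with an adjusted p of 0.068.

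TNC, which encodes the matricellular glycoprotein tenascin-C, was the member that rose most. It maps to chr9:115019578-115118257 on the minus strand. WT libraries held 143, 125 and 135 CPM of TNC untreated, 201, 205 and 208 after 4 h, 383, 385 and 395 after 8 h, 809, 760.0 and 764 after 16 h and 719.8, 724 and 738 after 24 h. From 4 h on, every treated library lay above every untreated library. Its 24 h level was 5.43-fold the start, or 2.43 ± 0.03 in log2 (adjusted p = 1.5e-40). Knockout libraries began lower, at 91.9, 86 and 86.7 CPM, and reached 199.6, 202 and 199 after 16 h and 185, 187 and 179 after 24 h. TNC thus rose in the knockout as well, by 1.06 ± 0.04, but its change fell short of that of WT by 1.37 ± 0.05 (adjusted p = 3e-24). The difference was called from 4 h, at -0.35 ± 0.06, then -0.79 ± 0.05 at 8 h and -1.34 ± 0.05 at 16 h. The 4 h call was not made when the untreated knockout was limited to its TPM columns 1 and 2 (-0.46, adjusted p = 0.065).

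TGFBI, which encodes an adhesion protein named for its induction by TGF-beta, had the largest difference between the genotypes' 24 h changes. Its WT libraries read 54.9, 63.6 and 59.6 CPM untreated, 66.1, 77.2 and 72.4 after 8 h, 23.8, 26 and 23.8 after 16 h and 16.5, 14.7 and 17.9 after 24 h. In the knockout TGFBI read 56, 64.6 and 62.4 untreated, 83.6, 87.5 and 88.4 after 8 h, 61.4, 63.7 and 65.5 after 16 h and 48.5, 50.6 and 49.7 after 24 h. The genotypes overlapped before treatment, both peaked at 8 h, and from 16 h every knockout library stood above every WT library. TGFBI fell by 1.87 ± 0.07 in WT at 24 h and by 0.30 ± 0.06 in the knockout, a difference of 1.56 ± 0.10 (adjusted p = 4e-17). The rise at 8 h was 0.29 ± 0.06 in WT and 0.50 ± 0.05 in the knockout, and neither passed in limma on log2(TPM + 1), where they were 0.12 and 0.13.

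SPARC and FN1 also fell less in the knockout. SPARC stood at 1255, 1223 and 1242 CPM in untreated WT and 405, 405 and 415 after 24 h, against 1402, 1437 and 1425 and 733, 729 and 720.2 in the knockout. The groups did not overlap at either time. SPARC fell by 1.60 ± 0.02 in WT and by 0.97 ± 0.02 in the knockout, and the difference was 0.64 ± 0.03 (adjusted p = 1.5e-20). FN1, the gene of fibronectin, read 1326, 1161 and 1165 CPM in untreated WT and 605, 612 and 619 after 24 h, and in the knockout 1231, 1040.1 and 1132 and 750.2, 713 and 721. Untreated libraries of the genotypes overlapped and 24 h libraries did not. Its fall was 0.99 in WT and 0.64 in the knockout, with a difference of 0.35 ± 0.07 (adjusted p = 0.00017). THBS3, a further thrombospondin, fell by 1.06 ± 0.09 in WT and 0.79 ± 0.08 in the knockout, and the difference of 0.27 ± 0.13 was not called (adjusted p = 0.11). THBS2 lay between 0.488 and 2.41 CPM in all libraries. It was called once, at -0.99 ± 0.37 in the knockout at 24 h, a call lost without untreated knockout replicate 1 (-0.78) or without 24 h knockout replicate 3 (-0.72).

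**Figure D3:**
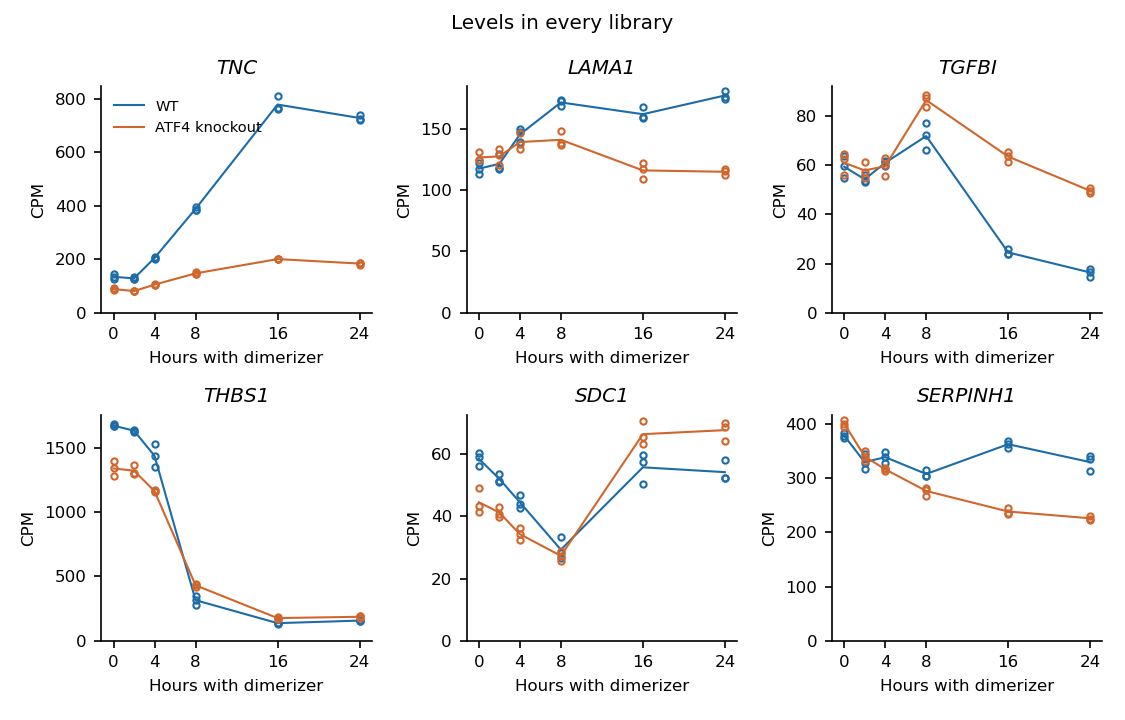
CPM of 6 genes against hours with dimerizer, from 0 on a linear axis. Circles are single libraries, 3 per group, and lines join group means of WT and ATF4 knockout cells. TNC, LAMA1 and SERPINH1 end higher in WT, TGFBI and SDC1 end higher in the knockout, and THBS1 collapses in both.

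Promoter sequences of 3 of these genes are shown, those with the largest fall, the largest rise and a perfect CRE. That CRE was the only one in the member windows searched. The sequences come from RefSeq on GRCh38.p14 and run 5′ to 3′ on the gene's own strand. Each is restricted to bases that lie upstream of all GENCODE 29 exons of the gene. Capitals mark matches, on either strand, to CRE (TGACGTCA), TEAD (GGAATG) or CCAAT.
THBS1, chr15:39580829-39581078, plus strand: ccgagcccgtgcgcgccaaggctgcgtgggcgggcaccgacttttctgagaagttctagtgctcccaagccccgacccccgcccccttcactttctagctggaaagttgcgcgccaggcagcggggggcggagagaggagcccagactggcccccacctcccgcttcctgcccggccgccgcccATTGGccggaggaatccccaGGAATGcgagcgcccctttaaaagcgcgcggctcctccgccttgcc
FN1, chr2:215436173-215436318, minus strand: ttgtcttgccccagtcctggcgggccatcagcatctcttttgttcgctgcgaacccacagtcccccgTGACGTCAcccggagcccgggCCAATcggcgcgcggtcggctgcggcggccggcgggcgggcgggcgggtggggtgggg
TNC, chr9:115118258-115118407, minus strand: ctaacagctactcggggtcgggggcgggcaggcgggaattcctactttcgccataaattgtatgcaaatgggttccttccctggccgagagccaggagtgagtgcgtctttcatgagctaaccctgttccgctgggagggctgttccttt
RefSeq gave 40 promoters for 34 members, some with more than 1 start, and the windows searched were the 250 bases before each start. CRE was found in 1 window, that of FN1, or 2.5% of member windows and 1.65% of all 35116. TEAD was found in 4, of SPARC, THBS1, THBS2 and FBN1 (10% against 11.9%), and CCAAT in 10 (25% against 32%). The AP-1 letters TGANTCA occurred in 1, that of POSTN (2.5% against 6.57%). The letters TGATGNAA, known as the C/EBP-ATF response element to which ATF4 binds, occurred in 0 of 40 member windows and 3.14% of all. The median share of G and C bases was 69.6% in member windows and 58% in all windows. Its part in these shares was not tested. A match is a description of letters and not of binding, and a missing match speaks only of this window.

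All 5 tested elastic fibre and fibulin genes fell in both genotypes at 24 h. EFEMP1, which encodes fibulin-3, had the largest fall, from 172, 178 and 183 CPM in untreated WT to 34.5, 31.6 and 31.6 after 24 h. Most of its loss came between 8 h, at 120.4, 126 and 129 CPM, and 16 h, at 37.3, 38.4 and 39.7, and none of these groups overlapped. Its change was -2.45 ± 0.05 in WT (adjusted p = 1.2e-34). In the knockout EFEMP1 went from 166, 178 and 183 to 30.1, 26.2 and 26.1 CPM, or -2.69 ± 0.05. That extra fall of 0.24 ± 0.08 was called (adjusted p = 0.013). It was lost without 24 h WT replicate 1 (-0.20), without 24 h knockout replicate 2 (-0.21) and in limma on log2(TPM + 1) (-0.07).

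EFEMP2, which encodes fibulin-4, a protein needed for elastic fibre assembly, differed the other way. WT libraries read 34.6, 36.9 and 37.3 CPM at 0 h and 13.2, 12 and 12.4 after 24 h. Knockout libraries read 44.9, 41.2 and 45.2 and 23, 21.9 and 24.1, above WT at both times. EFEMP2 fell by 1.53 ± 0.08 in WT and 0.93 ± 0.06 in the knockout, a difference of 0.60 ± 0.10 (adjusted p = 7.4e-06). It was 0.38 and not called when the untreated knockout was limited to its TPM columns 1 and 2. FBLN1, the gene of fibulin-1, declined alike: 198, 208 and 213 CPM in untreated WT became 106, 110.4 and 109.6, and 215, 221 and 223 in the knockout became 121, 116 and 116. Its 24 h changes were -0.92 ± 0.04 and -0.90 ± 0.04, and the difference of 0.03 ± 0.05 was not called (adjusted p = 0.78). The fibrillin genes fell to different depths, FBN2 by 0.39 ± 0.03 and FBN1 by 0.86 ± 0.12 in WT, with 24 h differences of 0.07 ± 0.05 and -0.02 ± 0.17 that were not called. FBN1 was scarce, between 5.56 and 17.2 CPM, and its knockout fall was -0.40 and not called with log2(TPM + 1).

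The basement membrane genes split by chain. LAMA5, the laminin α5 chain, was already lower at 2 h: WT libraries read 227, 268 and 270.0 CPM at 0 h, 219.6, 199 and 171 after 2 h, 136, 129 and 126 after 4 h and 41.7, 42.1 and 39.7 after 24 h. Each of these groups lay below the one before. LAMA5 fell by 0.38 ± 0.06 within 2 h (adjusted p = 2.2e-06) and by 2.62 ± 0.07 within 24 h (adjusted p = 4.9e-30). In limma on log2(TPM + 1) the 2 h fall was larger, at -0.49, but not called (adjusted p = 0.055). That fit takes its spread over all 36 libraries. They include the untreated knockout TPM columns that did not match their counts. The part of those columns in the missed call was not tested. The knockout moved from 294, 313 and 314 to 55.1, 55.2 and 51.9 CPM, or -2.51 ± 0.07, and the difference of 0.11 ± 0.11 was not called. LAMB2, the laminin β2 chain, went from 304, 336 and 344 to 109, 118 and 112 CPM in WT and from 364, 383 and 397 to 129.8, 126 and 124 in the knockout. Libraries at 24 h lay far below untreated ones in both, with changes of -1.54 ± 0.04 and -1.59 ± 0.04.

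LAMA1, the laminin α1 chain, was the only member called in opposite directions in the 2 genotypes at 24 h. In WT LAMA1 went from 113, 117 and 122 CPM to 173, 173 and 168 after 8 h and 174, 176 and 181 after 24 h. The knockout held 124, 124 and 131 at 0 h, 138, 148 and 136 after 8 h and 117, 112 and 115 after 24 h. WT libraries at 24 h all lay above their start, and knockout libraries all lay below theirs. LAMA1 rose by 0.59 ± 0.04 in WT (adjusted p = 4.6e-16) and fell by 0.14 ± 0.04 in the knockout (adjusted p = 0.0041). The difference was -0.74 ± 0.06 (adjusted p = 4.1e-13) and was called in every alternative fit. The small fall in the knockout was not: without untreated knockout replicate 3 it was -0.11 (adjusted p = 0.061), and with log2(TPM + 1) it was -0.01.

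The β1 and γ1 laminin chains changed little. LAMB1 rose to 0.35 at 8 h in WT and 0.40 in the knockout, then stood at -0.35 ± 0.06 and -0.40 ± 0.05 at 24 h, the latter turning to 0.05 with log2(TPM + 1). At 8 h LAMC1 was called higher in WT and lower in the knockout, the only member called in opposite directions then. That WT call was lost in some other fits of the counts, in fits of the TPM and when certain libraries were left out. LAMC1 ended at -0.30 ± 0.03 in WT and -0.52 ± 0.03 in the knockout, a difference of -0.22 ± 0.04 (adjusted p = 4.2e-06) that was not called in limma on log2(TPM + 1). NID1, the gene of nidogen-1, which bridges laminin and collagen IV, fell by 1.15 ± 0.05 and 1.38 ± 0.04, with a difference of -0.22 ± 0.06 (adjusted p = 0.0055) that was likewise not called there. HSPG2 encodes perlecan, the heparan sulfate proteoglycan of basement membranes. HSPG2 went from 709, 754 and 761 to 322, 323 and 309 CPM in WT and from 719, 718 and 695 to 387, 364 and 336 in the knockout. Libraries at 24 h lay below untreated ones, and knockout libraries ended above WT. HSPG2 fell by 1.22 ± 0.05 and 0.97 ± 0.05. The difference of 0.25 ± 0.08 (adjusted p = 0.01) was lost without 24 h WT replicate 3 (0.20) and without 24 h knockout replicate 1 (0.20). AGRN, the gene of agrin, fell by 0.82 ± 0.03 in WT and 0.75 ± 0.03 in the knockout. LAMA4, between 0.152 and 1.1 CPM, was called at no time. NID2, between 0.457 and 2.68 CPM, was called in the knockout alone, at -0.98 ± 0.33 at 16 h and -0.69 ± 0.30 at 24 h. The 16 h call was lost without 16 h knockout replicate 3 (-0.72) and with log2(TPM + 1) (-0.23). Adding 1 to the TPM shrinks the changes of a gene this scarce, but its part in the lost calls was not tested. With TPM columns 1 and 2 only of the untreated knockout, the values of NID2 turned to 0.0079 at 16 h and 0.19 at 24 h. The 24 h call was lost with log2(TPM + 1) (-0.04), in DESeq2, without a filter and when untreated replicate 1 or 2 or 24 h replicate 1 or 3 of the knockout was left out (-0.70 to -0.51).

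Proteoglycans held some of the deepest falls. SDC2, the gene of the heparan sulfate carrier syndecan-2, read 90.5, 95.1 and 97.7 CPM in untreated WT, 28.4, 30.7 and 30.6 after 8 h and 10.9, 8.4 and 9.75 after 24 h. In the knockout SDC2 read 131, 157 and 149, 47.4, 45.6 and 52.9 and 18.3, 16.9 and 16.8 at the same times. The knockout was higher at each of them, and no 8 h or 24 h library reached an untreated one. The changes were -3.29 ± 0.08 in WT (adjusted p = 1.1e-32) and -3.08 ± 0.06 in the knockout, and the difference of 0.21 ± 0.12 was not called. LUM, which encodes lumican, a keratan sulfate proteoglycan of collagen fibrils, went from 27.7, 25.1 and 23.7 to 2.85, 2.17 and 3.29 CPM in WT. In the knockout LUM went from 51.4, 49.8 and 55.1 to 6.82, 7.16 and 6.34, with every library above the WT libraries of its time. Its changes were -3.23 ± 0.12 and -2.95 ± 0.09, and the difference of 0.28 ± 0.18 was not called.

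BGN and VCAN were scarce. BGN, the gene of biglycan, read 2.17, 3.05 and 2.18 CPM in untreated WT and 0.69, 0.6 and 0.742 after 24 h, and 2.6, 2.67 and 2.59 and 1.92, 0.795 and 1.67 in the knockout. Libraries at 24 h and untreated libraries did not overlap in either genotype. Its changes were -1.84 ± 0.34 and -0.86 ± 0.29, and the knockout's call was lost without 24 h replicate 2 (-0.54, adjusted p = 0.11). VCAN, the gene of versican, was at most 1.87 CPM and was called lower in WT at 8, 16 and 24 h, by 2.11 ± 0.42, 2.56 ± 0.41 and 1.39 ± 0.37. In the knockout it was called lower at 8 h (-1.21 ± 0.41) and 16 h (-2.13 ± 0.49). With log2(TPM + 1) none of these 5 calls was made, with values from -0.28 to -0.23. VCAN was at 0.43 TPM in untreated WT, where adding 1 leaves little room for a fall. That fit is therefore a weak check of these calls, and why they were missed was not tested.

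SDC1, the gene of syndecan-1, dipped and came back. WT libraries held 60.5, 59.1 and 56.1 CPM at 0 h, 33.2, 26.6 and 28.1 after 8 h, 50.3, 57.4 and 59.7 after 16 h and 58, 52.3 and 52.4 after 24 h. Knockout libraries held 49, 43.2 and 41.4, 29, 25.8 and 27.2, 70.6, 65.6 and 63.3 and 70.0, 64.4 and 68.9. The knockout was below WT at the start and above it from 16 h, with no overlap at 0, 16 or 24 h. SDC1 was at -1.01 ± 0.07 at 8 h and -0.11 ± 0.06 at 24 h in WT, the latter not called (adjusted p = 0.12). In the knockout it rose by 0.61 ± 0.06 at 24 h (adjusted p = 2.2e-11), a difference of 0.72 ± 0.09 (adjusted p = 1.4e-08).

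SDC4 and GPC1 completed the proteoglycans. SDC4, the gene of syndecan-4, a co-receptor at focal adhesions, was the only member that rose at 2 h, by 0.21 ± 0.04 in WT and 0.20 ± 0.04 in the knockout. It reached 0.59 and 0.78 at 4 h and then fell, to -0.73 ± 0.04 and -0.92 ± 0.04 at 24 h. The 24 h difference of -0.19 ± 0.06 (adjusted p = 0.015) was lost without untreated WT replicate 3 (-0.17) and turned to 0.33 with log2(TPM + 1) over all columns. GPC1, the gene of the membrane-anchored glypican-1, went from 319, 323 and 321 to 152, 148 and 158 CPM in WT and from 293, 290.1 and 272 to 177, 165 and 162 in the knockout. WT began higher and ended lower. GPC1 fell by 1.07 ± 0.05 and 0.76 ± 0.04, a difference of 0.31 ± 0.06 (adjusted p = 0.00015), which was 0.17 and not called in the fits of all TPM columns.

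Of the 9 collagen-modifying genes, 8 were lower and 1 was higher in each genotype at 24 h. LOXL1, a lysyl oxidase needed for elastic fibres, had the largest change, from 206, 204 and 211 to 45.4, 42.1 and 48.5 CPM in WT and from 178, 185 and 183 to 56.7, 52.8 and 59.9 in the knockout. The knockout libraries lay below WT at 0 h and above it at 24 h. LOXL1 fell by 2.20 ± 0.05 (adjusted p = 8.8e-34) and by 1.69 ± 0.05, a difference of 0.51 ± 0.07 (adjusted p = 8.4e-08). LOX, the founding lysyl oxidase, differed in the other direction: 72.1, 66.9 and 68.9 CPM became 49.6, 47.5 and 46.3 in WT, and 45.1, 49.7 and 46.1 became 25, 24.1 and 21.8 in the knockout. Knockout libraries were below WT at both times. The falls were 0.54 ± 0.06 and 1.00 ± 0.07, and the difference was -0.46 ± 0.10 (adjusted p = 0.00017). LOXL2, whose product cross-links collagen IV, went from 208, 205 and 202 to 107, 99.9 and 103 CPM in WT and from 198, 197 and 187 to 100.05, 98.4 and 94.7 in the knockout. Untreated libraries stood well above those at 24 h in both genotypes, and the changes were -0.99 ± 0.04 and -0.99 ± 0.04 with a difference of 0.01 ± 0.05.

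SERPINH1, which encodes the collagen chaperone HSP47, fell far more without ATF4. WT libraries read 377, 375 and 383 CPM untreated, 314, 304 and 305 after 8 h, 355, 364 and 369 after 16 h and 335, 341 and 313 after 24 h. Knockout libraries read 408, 394 and 400.0, 282, 279 and 268, 236, 234 and 245 and 231, 223 and 224. WT dipped at 8 h and came back to just below its start at 16 h, whereas the knockout declined at each step and lay below WT from 4 h. SERPINH1 fell by 0.20 ± 0.03 in WT (adjusted p = 2.9e-07) and by 0.83 ± 0.03 in the knockout (adjusted p = 2.1e-25). The difference was -0.18 ± 0.04 at 4 h (-0.10 and not called with log2(TPM + 1)) and -0.63 ± 0.04 at 24 h (adjusted p = 1.8e-15).

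The hydroxylases of collagen prolines and lysines moved less. P4HA2, a catalytic subunit of prolyl 4-hydroxylase, went from 72.5, 72.4 and 65.6 to 31.4, 32.7 and 35.1 CPM in WT and from 63, 65.3 and 57.3 to 37.3, 34.4 and 32.2 in the knockout. Libraries at 24 h lay below untreated ones, and the genotypes overlapped there. P4HA2 fell by 1.09 ± 0.06 and 0.84 ± 0.06. The difference of 0.25 ± 0.09 (adjusted p = 0.026) did not pass when any of 6 single libraries was left out, of untreated WT replicates 1 and 2, 24 h WT replicates 1 and 2, untreated knockout replicate 3 and 24 h knockout replicate 1 (0.19 to 0.24). P4HA1, the other subunit gene of the set, fell by 0.45 ± 0.05 and 0.25 ± 0.05, and its difference of 0.20 ± 0.08 did not pass in DESeq2 (0.19, adjusted p = 0.069) or when any of 9 single libraries was left out (0.14 to 0.21). The lysyl hydroxylase gene PLOD1 fell by 0.80 ± 0.04 in WT and 0.34 ± 0.03 in the knockout, a difference of 0.46 ± 0.05 (adjusted p = 8.6e-10) that was 0.31 and not called with log2(TPM + 1). PLOD2, whose product hydroxylates collagen telopeptides, rose by 0.56 ± 0.04 in WT and 0.71 ± 0.04 in the knockout at 8 h and was at -0.13 ± 0.04 and -0.33 ± 0.05 at 24 h. The WT call at 24 h was lost without untreated WT replicate 1 or 24 h WT replicate 3 (-0.10 in each). PLOD3 was the member of this role that ended higher, by 0.20 ± 0.04 in WT and 0.35 ± 0.04 in the knockout. On the TPM scale the 24 h WT value of PLOD3 turned to -0.20 and that of PLOD2 to 0.05.

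The change after dimerizer differed between the genotypes for a growing number of members. None of the 38 was called for the difference at 2 h by edgeR or by DESeq2, where edgeR called 0.0105% of all genes higher and 0.289% lower. At an unadjusted p under 0.05, 2 were higher (SPARC and PLOD1) and 0 lower. At 4 h 2 members were called, both lower (TNC and SERPINH1), against 2.39% of all genes lower and 0.887% higher. At 8 h 7 were above and 6 below 0 (all genes: 11.3% and 6.99%). The count of 7 was 3 without untreated WT replicate 1, untreated WT replicate 2 or 8 h knockout replicate 2, and 4 without 8 h WT replicate 1 or 3. At 16 h 9 were above and 6 below (16.7% and 11%), and at 24 h 13 above and 9 below (17.7% and 12.1%). Among the 10522 tested genes with a mean of 10 CPM or more, 19.3%, 26.9% and 28.2% were above 0 at 8, 16 and 24 h. Of the 33 members among them, 7, 9 and 13 were. Below 0 were 9.32%, 15% and 16.8% of those genes and 6, 6 and 9 of those members. The growth over time was thus not particular to the members. Of the 22 called at 24 h, 11 fell in WT and fell less in the knockout, among them SPARC, FN1, THBS1, TGFBI, LOXL1 and EFEMP2. A further 7 fell in WT and more in the knockout: SERPINH1, LOX, NID1, LAMC1, PLOD2, SDC4 and EFEMP1. TNC and LAMA1 rose in WT and were lower than that in the knockout, PLOD3 rose more in the knockout, and SDC1 was called in the knockout alone. The share of all tested genes in each of these patterns was not counted. Whether any pattern is particular to the members is therefore not known. In every fit of the counts, each library left out included, 15 of the 22 stayed called, and 9 did so in the TPM fits too: FN1, SPARC, TNC, TGFBI, LAMA1, SDC1, LOX, LOXL1 and SERPINH1.

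**Figure D4:**
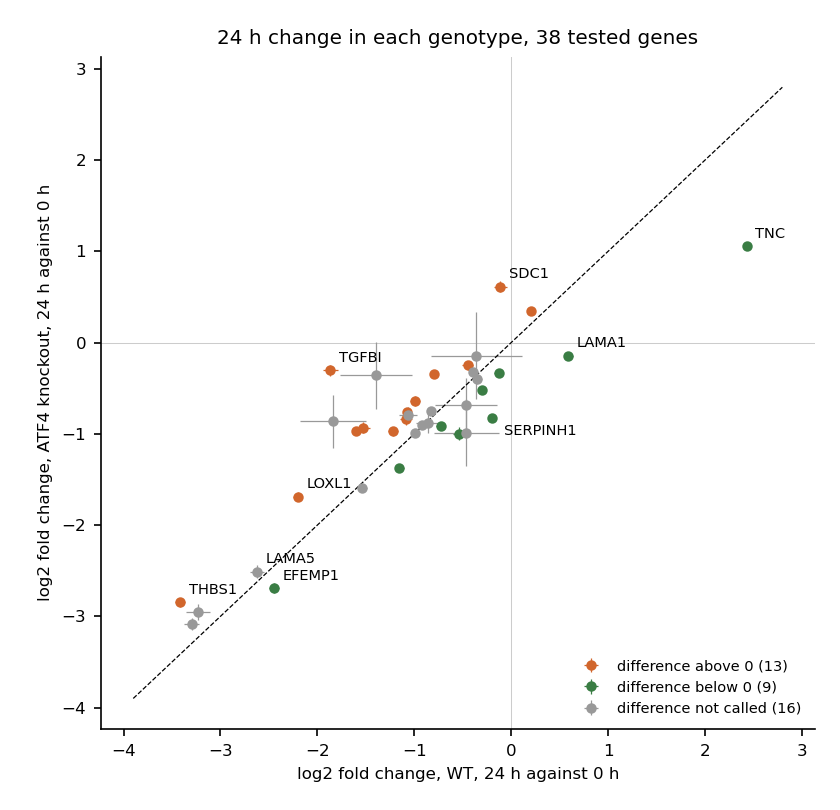
Log2 fold change at 24 h in ATF4 knockout cells against that in WT cells for the 38 tested genes, with bars of 1 SE. Colours show whether the difference of the 2 changes was called above 0 (13 genes), below 0 (9) or not called (16), and the dashed line marks equal change. TNC and LAMA1 sit far below the line and TGFBI and SDC1 above it, while LAMA5 lies close to it.

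The genotypes differed before any dimerizer was added. Of the 38 members, 14 were higher and 9 lower in untreated knockout than in untreated WT cells, where 11.6% of all genes were higher and 11.9% lower. Among the 10522 tested genes with a mean of 10 CPM or more, 14.6% were higher and 18.5% lower. Of the 33 members among them, 14 were higher and 9, or 27.3%, lower. LUM led the higher ones at 1.03 ± 0.07 (adjusted p = 8.2e-16), followed by SDC2 (0.63 ± 0.05), NID1 (0.55 ± 0.04) and FBN1 (0.38 ± 0.11). Basement membrane genes, 10 of the 38 tested, made up 6 of the 14: LAMA5, LAMB1, LAMB2, LAMC1, NID1 and AGRN, with differences between 0.15 and 0.55. Among the lower ones TNC was at -0.61 ± 0.04 (adjusted p = 5.2e-16), LOX at -0.56 ± 0.06, PLOD2 at -0.43 ± 0.04, SDC1 at -0.41 ± 0.06 and THBS1 at -0.32 ± 0.04. All changes against 0 h and all differences between changes share these untreated libraries. In every fit of the TPM 6 of the 23 calls were made, those of SPARC, NID1, THBS1, TNC, LOX and PLOD2. The other 17 were missed in at least 1 of them, LUM, SDC2, SDC1, FBN1, LAMA5, LAMB1, LAMB2, LAMC1 and AGRN among them, and with log2(TPM + 1) 3 members were called higher and 4 lower. The untreated differences of THBS3, FBN1, FBLN1, P4HA2 and SERPINH1 were lost when certain libraries were left out, untreated WT replicate 1 for each of them; FBN1 was then at 0.30 (adjusted p = 0.068).

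**Figure D5:**
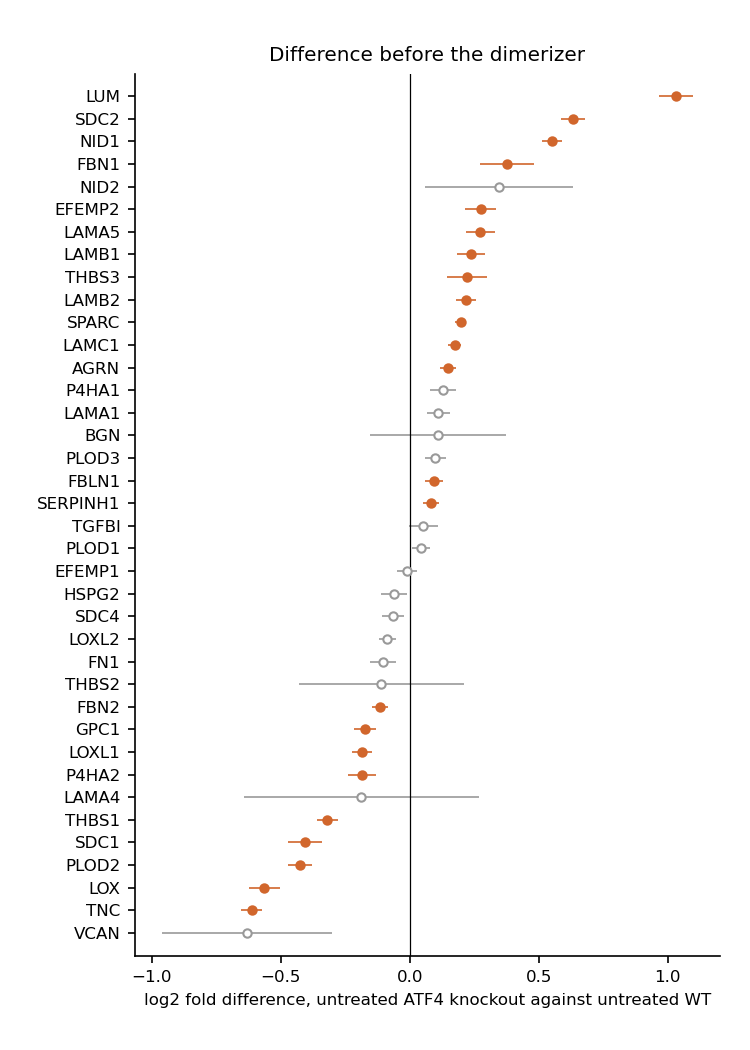
Log2 fold difference between untreated ATF4 knockout and untreated WT cells for the 38 tested genes, in order of size, with bars of 1 SE. Filled points had an adjusted p under 0.05. LUM, SDC2 and NID1 stand highest, and TNC, LOX and PLOD2 are the lowest called genes.

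Genes of related lists are given for 24 h, when 32.4% of all genes were lower and 33% higher in WT and 33% and 32.4% in the knockout. Of 24 collagen chains 17 were lower and 4 higher (median -1.21), with COL1A1 at -2.15 ± 0.04, COL6A1 at -2.09 ± 0.05 and COL27A1 against them at 0.64 ± 0.07. In the knockout 16 were lower and 3 higher, and COL1A1 was at -1.52 ± 0.04. Helpers of collagen folding, export and propeptide removal were more divided, with 12 of 20 lower and 3 higher in WT (median -0.17) and 14 and 4 in the knockout. The procollagen proteinase genes BMP1 and ADAMTS2 were at -1.19 ± 0.05 and -2.32 ± 0.15 in WT, and TMEM38B, which encodes a cation channel of the endoplasmic reticulum, at 1.08 ± 0.07. Glycosaminoglycan synthesis had 20 of 29 lower and 4 higher in both genotypes, with the sulfate donor synthase PAPSS1 at -1.10 ± 0.05, the heparan sulfate sulfotransferase NDST1 at -0.62 ± 0.03 and the linker galactosyltransferase B4GALT7 at 0.36 ± 0.07 in WT. All but 2 of 14 TGF-beta pathway genes were lower in WT, with LTBP3 at -1.72 ± 0.05, TGFB2 at -1.46 ± 0.05 and SMAD4 higher at 0.38 ± 0.05, against 10 lower and 2 higher in the knockout. Among 16 matrix receptors 13 were lower and 1 higher in WT, where ITGB8, an integrin chain, was at -3.73 ± 0.10 and the collagen receptor DDR2 at 2.38 ± 0.06. DDR2 differed before treatment, at -3.25 ± 0.12 in the knockout. Of 30 other matrix genes 23 were lower and 4 higher in WT, with the lysyl oxidase LOXL4 at -2.81 ± 0.04 and the matrilin MATN2 at -3.21 ± 0.07. The highest log2 change among these 30 was 5.16 in WT.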

How the data were processed

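Total RNA from wells of 24-well plates was made into directional libraries and sequenced, per the labels. Per the submitters' processing notes, reads were checked with FastQC 0.11.5 and quantified with Salmon 0.9.1, with GRCh38 named as the genome. The annotation release and the step from transcripts to genes are not given in the sources used here. Deposited by the authors were 2 gene tables over the same 36 libraries, the first holding expected counts (not whole, so rounded before fitting) and the second TPM, whose smallest value is 0.102 in every column. Counts and TPM columns of the same name matched best in 33 of 36 libraries. The exceptions were the untreated knockout libraries, where replicate 3 correlated at 0.498 with its own TPM column, and which table is in error is not known. Tests rest on the counts, so knockout changes and differences depend on these count columns, and TPM serve for WT levels and as an alternative.

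The filter filterByExpr kept 19043 genes, and counts were TMM-scaled. One model with 12 group means over the 36 libraries was fitted in edgeR 4.0.16 (R 4.3.3, limma 3.58.1). Log2 fold changes carry standard errors from the quasi-likelihood F statistic. P values of the 16 comparisons were adjusted by Benjamini-Hochberg over all tested genes. The members, role lists and related lists were chosen with earlier results of these data known. Values in every library were given, within each role, for up to 3 members with the largest called WT change at 24 h and a mean of at least 1 CPM, up to 2 with the largest called 24 h difference and any called in opposite directions. Those of FN1, LOX and SPARC were added after their values were seen. From each related list up to 2 genes with the smallest adjusted p and up to 1 against the rest were named.

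The alternatives were RLE scaling, no filter, the replicate number as a block, only the groups of a comparison, DESeq2 1.42.0, limma on log2(TPM + 1) and log2(TPM + 0.1), TPM columns 1 and 2 only of the untreated knockout, and each library left out. Fits were tested on simulated data. Replicate pairs had a chi-square per degree of freedom of 1.34 to 2.61, so none were duplicates. Positions are from GENCODE 29, in which 33 members had the same identifier and version and 7 another version. Depth limits low genes: VCAN, THBS2, LAMA4, NID2 and BGN rest on few counts. Their untreated WT means were 0.43 to 2.14 TPM, so adding 1 before the log shrinks their changes.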

Additional observations from a re-analysis of the deposited data

Results flagged for a closer look

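For 22 of the 38 tested genes the test of the difference itself found that the 24 h change of the ATF4 knockout was unlike that of WT, at an adjusted p under 0.05 in edgeR's quasi-likelihood test. Values are knockout change minus WT change in log2 ± SE, from 3 libraries per group, beside 17.7% of all tested genes called above 0 and 12.1% below. Among tested genes with a mean of 10 CPM or more, 28.2% were above 0 and 16.8% below.

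Adhesive and matricellular genes gave TGFBI 1.56 ± 0.10, SPARC 0.64 ± 0.03, THBS1 0.57 ± 0.07 and FN1 0.35 ± 0.07 above 0 and TNC -1.37 ± 0.05 below. Fibulin genes gave EFEMP2 0.60 ± 0.10 and EFEMP1 -0.24 ± 0.08. In the basement membrane group HSPG2 was at 0.25 ± 0.08, LAMA1 at -0.74 ± 0.06, LAMC1 at -0.22 ± 0.04 and NID1 at -0.22 ± 0.06. Proteoglycan genes were SDC1 0.72 ± 0.09, GPC1 0.31 ± 0.06 and SDC4 -0.19 ± 0.06. Among the collagen-modifying genes LOXL1 was at 0.51 ± 0.07, PLOD1 at 0.46 ± 0.05, P4HA2 at 0.25 ± 0.09, P4HA1 at 0.20 ± 0.08 and PLOD3 at 0.15 ± 0.06 above 0, and SERPINH1 at -0.63 ± 0.04, LOX at -0.46 ± 0.10 and PLOD2 at -0.20 ± 0.06 below.

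The weakest of these are PLOD3 and P4HA1, which lost the call when any of 10 and any of 9 single libraries of the 12 was left out (0.11 to 0.16 and 0.14 to 0.21). P4HA2 lost it for 6 libraries (0.19 to 0.24). PLOD2 lost it without replicate 3 of untreated WT or of the untreated knockout (-0.18 and -0.17), and EFEMP1, HSPG2 and SDC4 as given above.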

How the results depend on the processing

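Over 608 values of members in the 16 comparisons, 602 kept their direction and side of the threshold with RLE scaling and 581 with no filter, and none turned. Of 595 values with only the groups of the comparison 578 did, and of 577 in DESeq2 565. Of 4788 values with a library left out, 4570 did. The replicate block left 598 of 608 as they were, added 10 calls and ended 0. No comparison had every pair of same-numbered libraries correlated above 0.1, so the numbers were not taken to pair wells. Of the 36 libraries, 20 correlated best with their own of the 3 numbers, so some pairing is not excluded. The number of members whose difference at 4 h was above 0 went from 0 to 2 with no filter and to 1 with only the groups of the comparison. Leaving out libraries gave 0 to 1 for that count (1 without replicate 3 of untreated or of 4 h WT) and 3 to 9 for the 7 above 0 at 8 h.

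The fits of the deposited TPM moved most, and the cause was not tested. With log2(TPM + 1) and log2(TPM + 0.1), 463 and 462 of 608 values were kept, and 494 with TPM columns 1 and 2 only of the untreated knockout. In that order, the members called lower numbered 3, 3 and 6 in WT at 2 h and 12 in WT at 4 h for the first 2 fits. In the knockout they numbered 6, 5 and 6 (2 h) and 11, 11 and 9 (4 h), with 14 for the first 2 fits (8 h). Differences below 0 numbered 1, 1 and 0 (4 h), 2 in each (8 h), for the first 2 fits 3 (16 h) and 4 (24 h), and 4, 4 and 5 untreated. Members called higher numbered 0 for the first 2 fits (WT, 2 h), 2 in each (knockout, 2 h) and 4 in the third (knockout, 8 h). Differences above 0 numbered 1 in each (4 h), 1, 1 and 3 (8 h), 7, 7 and 8 (24 h), and 3, 2 and 5 untreated.

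Values that turned with log2(TPM + 1) and log2(TPM + 0.1), as pairs in that order, were in WT LAMB1 at 4 h (0.0631, 0.0638), PLOD2 at 24 h (0.0541, 0.0547) and PLOD3 at 24 h (-0.20, -0.20). In the knockout they were EFEMP1 (0.0573, 0.0579), AGRN (0.0346, 0.0348) and SDC2 (0.0923, 0.0934) at 2 h, and THBS1 (0.67, 0.67), AGRN (0.17, 0.17) and LOXL2 (0.0828, 0.0837) at 4 h. Later ones were TGFBI (-0.39, -0.40) and LAMB1 (0.19, 0.19) at 16 h, and LAMB1 (0.0537, 0.0545) at 24 h. The 24 h difference of SDC4 became 0.33 and 0.34. Untreated differences became -0.19 and -0.26 for FBN1, -0.0596 and -0.0605 for LAMB1 and -0.0924 and -0.0928 for AGRN. With TPM columns 1 and 2 only, the values that turned were in WT LAMB1 at 4 h (0.0631), PLOD3 at 8 h (-0.20) and 24 h (-0.20) and PLOD2 at 24 h (0.0541). In the knockout they were FN1 at 4 h (-0.0268) and 8 h (-0.36), PLOD3 at 8 h (-0.0032), TGFBI (-0.31), LAMB1 (0.0287) and NID2 (0.0079) at 16 h and NID2 at 24 h (0.19), and untreated FBN1 (-0.0389).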
